A study of Mus musculus with 3 samples.

Results

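The genes described here code for the subunits, assembly factors and activators of the proteasome, taken as every mouse gene whose symbol is Psm, a letter from a to g and a number. The rule found 48 genes among 22706, and 44 of them reached an FPKM (fragments per kilobase of transcript, normalised for the number of fragments mapped) of 1 in at least 1 library, as did 11463 genes in all. The data are RNA-seq of polyadenylated RNA from C2C12, a line of mouse myoblasts that can be turned towards muscle or bone, with 1 library in each of 3 groups. In the mock group the cells had been mock-transfected and grew in medium with 20% serum. The shKSRP-labelled library came from cells in that same medium, transfected by the label with a hairpin against KSRP, an RNA-binding protein that promotes mRNA decay. The BMP2 library came from mock-transfected cells whose title names differentiation medium and BMP2, for which the protocol gives 2% horse serum and 100 to 300 ng/ml of this bone morphogenetic protein. Its difference from mock therefore joins a change of medium and a growth factor. Since each group holds 1 library, differences could not be set against replicates and carry no p-value.

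The proteasome is the large protease that destroys proteins tagged with ubiquitin. Its core is a stack of rings, the outer ones built of alpha subunits that gate the entrance and the inner ones of beta subunits, of which 3 kinds cut peptide bonds. A regulatory cap sits on the core, with a base whose ATPases unfold the substrate and a lid that removes the ubiquitin chain. Dedicated chaperones build the particle, other activators can replace the cap, and interferon switches in alternative cutting subunits. In muscle the proteasome carries out much of the protein breakdown of wasting, and in growing cells it also clears cyclins.

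The 3 libraries were close in depth, at an estimated 62.1 M (mega) fragments for mock, 68.5 M for the shKSRP-labelled library and 60.4 M for BMP2. Khsrp, the gene of KSRP, stood at 31.4 ± 0.85 FPKM in mock, 28.4 ± 0.64 in the shKSRP-labelled library and 27.1 ± 0.67 in the BMP2 library. Its mRNA thus did not set the labelled knockdown apart from the BMP2 library, which was mock-transfected, so the label is in doubt wherever a direction is drawn from it. The myoblast markers Myod1 (30.7, 34.8 and 17.3 FPKM in the same order) and Des (280, 185 and 218) were present in all 3. Of 6 myoblast markers, Myf5 (7.75, 48.4 and 9.09) and Pax7 (0.12, 2.90 and 0.46) were higher by 2-fold than mock in the shKSRP-labelled library. Of all genes 11.0% were. Cdh15 (38.3, 31.1 and 5.02) was lower in the BMP2 library, where 8.95% of all genes were. Chrna1 was at 94.1, 132 and 55.6. In the shKSRP-labelled library 4 of the 6 were higher by 2-fold than in the BMP2 library, where 6.07% of all genes were. The part of these markers in the results below was not tested. Of 8 leukocyte markers matched to a symbol, Cd14 (11.9, 4.61 and 10.5), Lyz2 (0.60, 3.98 and 1.83) and Csf1r (0.55, 0.21 and 2.13) passed 1 FPKM, while Cd3e and Itgam were listed at 0 and Ptprc was at 0.01 or below. The endothelial and epithelial markers were at 0.06 or below.

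Proteasome genes were among the abundant messages, and together they took a smaller share of the total in both other libraries than in mock. The 44 measured genes held 1.12% of all FPKM in mock, 0.851% in the shKSRP-labelled library and 0.878% in the BMP2 library. FPKM is a level per transcript length, so genes can be set side by side within a library. Here and below, ± is a half-width built from the deposited 95% intervals, which covers counting and assignment error only. PCR copies were not marked, so the true error is wider. A lower FPKM in bulk RNA cannot tell fewer cells of a type from less RNA per cell.

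The alpha ring genes Psma1 to Psma7 lay within a narrow band in each library. In mock they ran from Psma1 at 146 FPKM to Psma7 at 408, a spread of 2.80 times. In the shKSRP-labelled library they ran from 79.8 (Psma1) to 219 (Psma2), and in the BMP2 library from 86.1 (Psma1) to 235 (Psma7). The 7 constitutive beta genes were as high, from Psmb2 at 197 to Psmb3 at 405 in mock. They spanned 109.8 (Psmb5) to 311 (Psmb1) in the shKSRP-labelled library and 144 (Psmb6) to 248 (Psmb7) in the BMP2 library. The 6 base ATPases were on the whole lower than the core, from Psmc4 at 107 to Psmc3 at 255 in mock, 68.7 to 192 in the shKSRP-labelled library and 73.3 to 243 in the BMP2 library, with the same genes at both ends each time. The 8 lid genes ran from Psmd11 at 53.2 to Psmd8 at 176 in mock, from 62.4 to 119 in the shKSRP-labelled library and from 50.9 to 189 in the BMP2 library, again with the same genes at both ends. Subunits that enter the particle in equal number thus had mRNA levels within about one order of size of each other, and the chaperones, which leave it again, mostly stood lower, between Psmd10 at 24.5 and Psmg2 at 72.9 in mock.

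**Figure D1:**
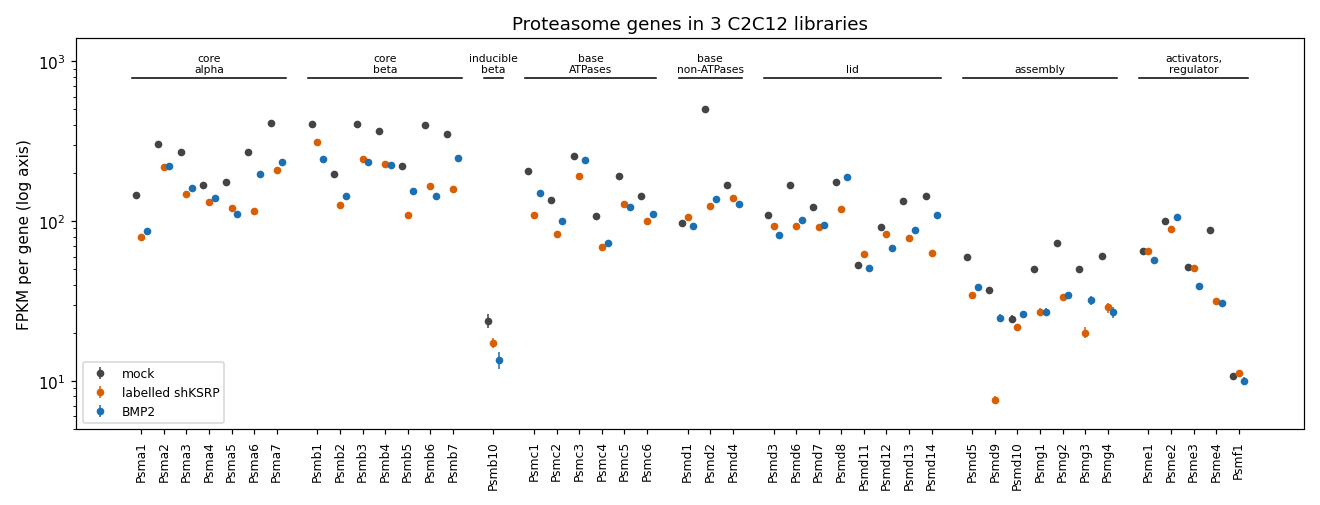
FPKM per gene on a log axis for the 44 measured proteasome genes, grouped by their place in the particle, with 1 point for each library and bars for the 95% half-width. Core genes sit near the top in all 3 libraries, chaperones and activators lower, and the mock point is the highest of the 3 for most genes; for Psmd2, at 500.2 in mock, most of that height lies on a short assembled transcript.

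Of the alternative beta subunits, the genes that interferon switches on were nearly silent. Psmb8, which replaces the chymotrypsin-like subunit Psmb5, was at 0.288 ± 0.13 FPKM in mock, 0.105 ± 0.074 in the shKSRP-labelled library and 0.104 ± 0.078 in the BMP2 library. Psmb9, which replaces the caspase-like subunit Psmb6, was at 0.276 ± 0.17, 0.360 ± 0.18 and 0.123 ± 0.11. Their intervals overlap between every pair of libraries, and neither gene reached 1% of its constitutive partner in any of them. Psmb10, which replaces the trypsin-like subunit Psmb7, was the exception among the interferon-inducible 3, at 23.8 ± 2.2 in mock, 17.3 ± 1.3 in the shKSRP-labelled library and 13.6 ± 1.6 in the BMP2 library. That was 6.80%, 10.9% and 5.47% of Psmb7, or 3.93%, 8.61% and 2.97% over a fixed gene length (fragments of all its transcripts divided by its longest RefSeq length). Psmb10 shares its locus with Ctrl in the mock file. Assembled transcripts held 66.0% of its value in mock, 37.9% in the shKSRP-labelled library and 78.3% in the BMP2 library. Over a fixed gene length Psmb10 was at 13.8, 13.7 and 7.38 FPKM in the same order, so mock and the shKSRP-labelled library were then alike. The thymus subunit gene Psmb11 was at 0.0074, 0 and 0.0038, and the testis alpha gene Psma8 was listed at 0 in all 3. These 4 of 48 genes (Psma8, Psmb8, Psmb9 and Psmb11) were the ones under 1 FPKM everywhere. Of the others, the smallest value in any library was 7.63 (Psmd9 in the shKSRP-labelled library), so no member passed through 1 library alone. The gene with the smallest highest value was Psmf1, at 10.8, 11.2 and 10.02.

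The promoters were searched because most members moved in 1 direction in the comparisons below. The RefSeq promoter table (GRCm38.p6, 250 bases before to 50 after each start) held 40 of the 48 genes. On both strands, TGACNNNGC, the core of the antioxidant response element that the transcription factor NFE2L1 binds at proteasome genes, was found in 6 of the 40 (15%), against 14.0% of 27025 genes of the table. Among measured genes it was in 16.2% of 37 members and 16.7% of 9061 genes compared, so the letters were no more frequent here than elsewhere. A core of the interferon-stimulated element, GAAA followed after any 2 bases by GAAA, was found in 5 of the 40 (12.5%), against 3.99% (13.5% of measured members and 3.37% of genes compared). CCAAT was found in 14 (35%, against 41.1%), TTCNNNGAA in 3 (7.5%, against 9.55%) and TATAAA in 4 (10%, against 15.7%). Among measured members and genes compared the shares were 32.4% and 43.6% for CCAAT, 5.41% and 8.11% for TTCNNNGAA, and 8.11% and 8.69% for TATAAA. Overlaps between matches of different motifs were not removed. All 6 stretches with TGACNNNGC are shown first, because they are the known binding letters of a regulator of subunit genes. All 5 stretches with the interferon core follow, because these letters were the ones more frequent here than in the table, and Psmd9 holds both. Each is read 5′ to 3′ on the strand of its gene, and capitals mark the match, which lies on the opposite strand in Psmc6, Psmd12 and Psme4 of the first set and in Psmb3, Psmd4 and Psme1 of the second.
Psmb5 (chr14:54618022-54618054, minus strand): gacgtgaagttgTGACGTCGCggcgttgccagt
Psmb6 (chr11:70525336-70525368, plus strand): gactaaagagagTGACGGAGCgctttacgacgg
Psmd9 (chr5:123228147-123228179, plus strand): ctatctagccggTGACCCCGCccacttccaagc
Psme4 (chr11:30771756-30771788, plus strand): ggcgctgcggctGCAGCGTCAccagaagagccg
Psmc6 (chr14:45329585-45329617, plus strand): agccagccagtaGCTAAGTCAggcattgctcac
Psmd12 (chr11:107479278-107479301, plus strand): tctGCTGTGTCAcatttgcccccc
Psmb3, interferon core (chr11:97703259-97703292, plus strand): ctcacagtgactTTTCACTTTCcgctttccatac
Psmd4, interferon core (chr3:95042673-95042706, minus strand): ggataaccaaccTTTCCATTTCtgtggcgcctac
Psmd9, interferon core (chr5:123228019-123228052, plus strand): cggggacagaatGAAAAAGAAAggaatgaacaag
Psme1, interferon core (chr14:55578491-55578524, plus strand): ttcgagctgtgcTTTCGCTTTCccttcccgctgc
Psmg4, interferon core (chr13:34162967-34163000, plus strand): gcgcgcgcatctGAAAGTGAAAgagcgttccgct
The first matches of Psmb6 and Psme4 lie 9 and 7 bases before the start, those of Psmd9 and Psmb5 31 and 47 bases before it, and those of Psmc6 and Psmd12 227 and 247 bases before it. The interferon cores of Psme1 and Psmg4 lie at bases 10 and 16 after the start, and those of Psmd4, Psmd9 and Psmb3 lie 80, 159 and 163 bases before it. The 5 genes with it ranged in the shKSRP-labelled library from near mock (Psme1, log2 ratio 0.01) over −0.28 (Psmd4) and −0.73 (Psmb3) to −1.04 (Psmg4) and −2.14 (Psmd9). The interferon-inducible genes Psmb8, Psmb9, Psmb10 and Psme2 held no interferon core in the searched promoters. A match is a run of letters and was not tested as a binding site.

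Between mock and the shKSRP-labelled library the medium was shared, and the labels differ in the hairpin. Proteasome genes were mostly lower in the shKSRP-labelled library, across the core, the cap and the chaperones, and the 3 cutting subunits of the core and 4 of 7 chaperones were lower by at least 2-fold. On the fixed gene length scale 2 of the cutting subunits (Psmb5 and Psmb7) and 3 of the chaperones were. Of the 44, 40 had a log2 ratio of FPKM + 1 below 0, where 50.9% of all 11463 genes did. Taking a log2 ratio of 1 in size as the rule for a call, which is no test, 11 members were lower and 0 were higher, where 12.9% of all genes were lower and 11.0% higher (24.0% together). The median log2 ratio was −0.66 over the members and −0.02 over all genes. In 39 members the difference below 0 was larger than its 95% half-width, and in 2 the difference above 0 was.

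Transcript length moved with the ratios of all genes between these libraries, and proteasome transcripts are short, with a median of 1287 nt. For 894 other genes with a longest transcript under 1000 nt the median log2 ratio was −0.54, against −0.86 for 13 members of that length. From 1000 to 1500 nt it was −0.47, against −0.60 for 14 members, and from 1500 to 2000 nt it was −0.28, against −0.51 for 9 members. Each member was therefore set beside the other genes whose longest transcript lay within a factor of 1.2 of its own. The median ratio of these windows was −0.45 over the members, and the members' median after subtracting it was −0.21. On that scale 32 of 44 members lay below 0. Under the lower quartile of their window lay 13, close to the share that a quartile holds by definition. The call by size moves with length as well: of the other genes under 1000 nt 26.3% were lower by 2-fold, beside 5 of 13 members, and from 1000 to 1500 nt 23.1%, beside 2 of 14.

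**Figure D2:**
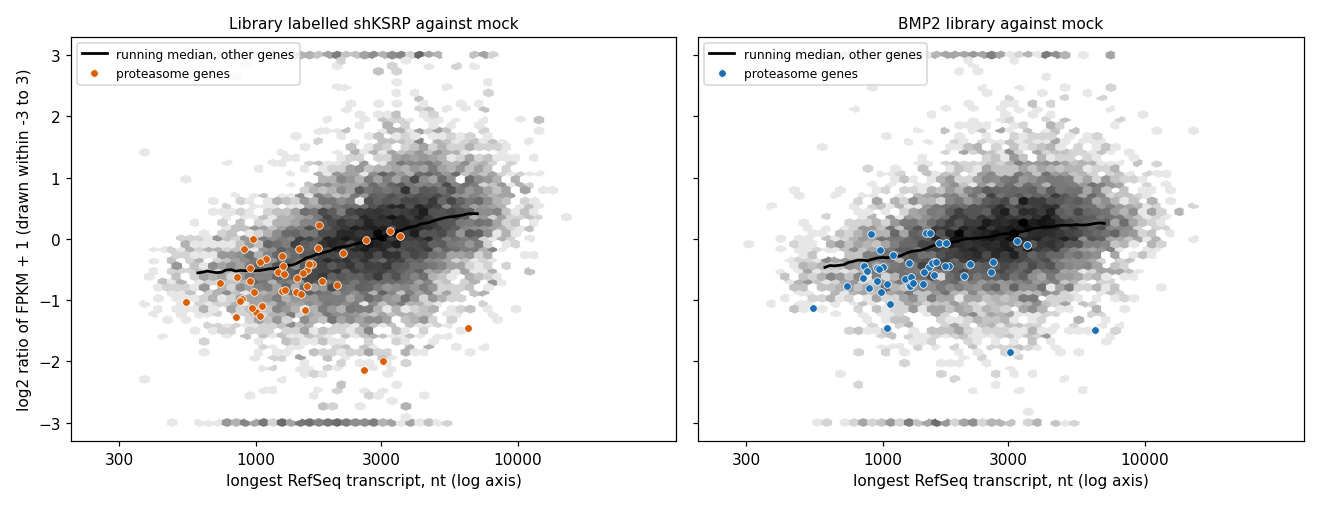
Log2 ratio of FPKM + 1 against the longest RefSeq transcript (log axis) for the shKSRP-labelled library (left) and the BMP2 library (right), each against mock; grey shading is the density of 11419 other genes, the line their running median and the points the 44 proteasome genes. The line rises with length in both panels, and most points lie below it (32 of 44 on the left, 37 on the right).

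All 14 constitutive core genes were below 0, as were 78.6% of other genes under 1000 nt and 75.3% of those from 1000 to 1500 nt. The core median was −0.79. After adjusting for length it was −0.29, with 11 of the 14 below 0. The chymotrypsin-like subunit Psmb5 was at 222 ± 4.39 FPKM in mock, 109.8 ± 2.95 in the shKSRP-labelled library and 155 ± 3.71 in the BMP2 library (log2 ratios to mock −1.01 and −0.52). The trypsin-like subunit Psmb7 was at 350.5 ± 5.16, 159 ± 3.32 and 248 ± 4.40 (−1.13 and −0.50). In both, mock was highest, the shKSRP-labelled library lowest, and no pair of intervals overlapped. The caspase-like subunit Psmb6 was at 398 ± 10.2, 165 ± 4.39 and 144 ± 3.22 (−1.27 and −1.46), with its lowest value in the BMP2 library instead. In mock 55.6% of Psmb6 lay on a 376-nt assembled transcript, and over a fixed gene length its ratios were −0.85 and −0.83. After adjusting for length, the ratios in the shKSRP-labelled library were −0.50 (Psmb5), −0.62 (Psmb7) and −0.75 (Psmb6). Of other genes of like length 24.9%, 21.5% and 17.3% had a lower ratio. The alpha ring gene Psma6 was at 269 ± 4.45 in mock, 116 ± 2.79 in the shKSRP-labelled library and 196 ± 3.85 in the BMP2 library (−1.20 and −0.46). Psma6, Psmb5 and Psmb7 hold no assembled transcript in any library, so those 3 differences rest on RefSeq transcripts. The structural beta gene Psmb1, at 405 ± 8.10, 311 ± 7.17 and 243 ± 4.19, was the core beta gene nearest to mock in the shKSRP-labelled library (−0.38). As sums of FPKM, the core genes of the shKSRP-labelled library stood at 58.0% of mock. The FPKM of all genes also summed lower there, at 533262 against 677872 in mock. The core held 0.444% of that sum in the shKSRP-labelled library and 0.602% in mock.

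In the cap, the 6 base ATPases were all below 0 in the shKSRP-labelled library, from −0.90 (Psmc1) to −0.41 (Psmc3), and none was lower by 2-fold. After adjusting for length all 6 were still below 0, with a median of −0.22. The lid had a median of −0.49, with 7 of 8 genes below 0, and a length-adjusted median of −0.17, with 6 below 0. Psmd14, the lid enzyme that cuts off the ubiquitin chain, was the lowest of them at 143 ± 3.23 in mock, 63.3 ± 1.60 in the shKSRP-labelled library and 109 ± 2.92 in the BMP2 library (−1.16 and −0.39). Its RefSeq transcript alone stood at 70.7, 63.3 and 73.4, and the rest lay on assembled transcripts in mock and BMP2. Over a fixed gene length its ratio to mock in the shKSRP-labelled library was −1.02. The lid gene Psmd11 went the other way, at 53.2 ± 1.45, 62.4 ± 1.60 and 50.9 ± 1.56 (0.23 and −0.06), and was the highest ratio among the members in that comparison. Another lid gene, Psmd12, was at 91.8 ± 2.28, 83.1 ± 2.13 and 67.4 ± 1.65 (−0.14 and −0.44).

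Psmd2, the base subunit that docks ubiquitin-carrying proteins, had a very large apparent difference that did not lie on its full-length transcript. It was at 500.2 ± 9.73 in mock, 125 ± 1.57 in the shKSRP-labelled library and 138 ± 1.98 in the BMP2 library (−1.99 and −1.85). In mock 74.0% of this, 370.2 FPKM, lay on an assembled transcript of 479 nt and 3 exons at the 3′ end of the gene (chr16:20662307-20663489, mm9). The RefSeq transcript of 21 exons was at 130.0, 125 and 117, and over a fixed gene length the ratios were −0.60 and −0.47. In the mock file the locus is joined with that of Eif4g1. The other large base scaffold, Psmd1, was close to mock, at 96.6 ± 1.38, 106 ± 1.38 and 93.8 ± 1.38 (0.13 and −0.04). The ubiquitin receptor Psmd4 was at 169 ± 3.58, 139 ± 3.16 and 128 ± 3.39 (−0.28 and −0.40), with mock clear of the other libraries.

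**Figure D3:**
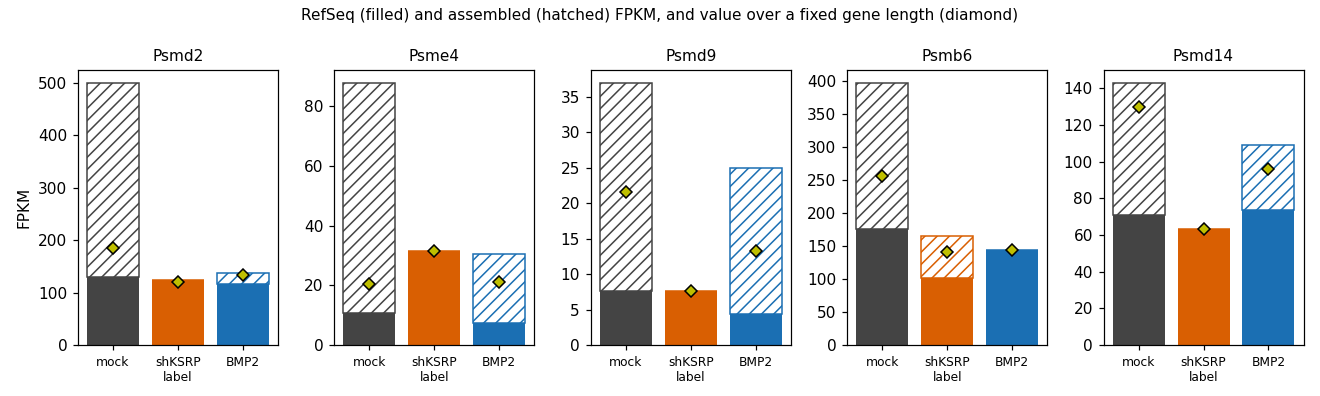
FPKM of Psmd2, Psme4, Psmd9, Psmb6 and Psmd14 in the 3 libraries, as bars that start at 0 with the RefSeq part filled and the assembled part hatched, and as diamonds for the value over a fixed gene length. The hatched part is tallest in mock for all 5, and the diamonds of Psme4 (20.3, 31.5 and 21.2) no longer have mock as the highest.

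Of the structural groups, the assembly chaperones had the lowest median in the shKSRP-labelled library. All 7 were below 0 (6 after adjusting for length), with a median of −1.04 and a length-adjusted median of −0.59. By at least 2-fold 4 were lower (3 over a fixed gene length, without Psmg2 at −0.98), where 12.9% of all genes were. Of other genes under 1000 nt 26.3% were, and of those from 1000 to 1500 nt 23.1%. The summed FPKM of the chaperones was 49.0% of mock, and their share of all FPKM was 0.0326% against 0.0523% in mock. Psmg1 and Psmg2 form the pair that starts the alpha ring. Psmg1 was at 50.3 ± 1.94 in mock, 27.2 ± 1.4 in the shKSRP-labelled library and 27.0 ± 1.4 in the BMP2 library (−0.86 and −0.87). Psmg2 was at 72.9 ± 2.88, 33.4 ± 1.69 and 34.5 ± 1.56 (−1.10 and −1.06). Both non-mock libraries were alike within their intervals for each of this pair, and mock stood clear of them. Psmg3 and Psmg4 form the second ring-building pair. Psmg3 was at 50.3 ± 2.14, 20.1 ± 1.51 and 31.9 ± 2.02 (−1.28 and −0.64), with the shKSRP-labelled library below the BMP2 library. Psmg4 was at 60.2 ± 3.14, 28.9 ± 2.10 and 26.9 ± 2.30 (−1.04 and −1.13), with those 2 overlapping.

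The chaperones of the base, which hold the ATPases before they join, differed more among themselves. Psmd5 was at 59.3 ± 1.82 in mock, 34.8 ± 1.27 in the shKSRP-labelled library and 38.7 ± 1.14 in the BMP2 library (−0.75 and −0.61). Psmd10, also known as gankyrin, was near mock in both, at 24.5 ± 1.17, 21.7 ± 1.05 and 26.1 ± 1.13 (−0.17 and 0.09). Psmd9 had the lowest ratio of all members in the shKSRP-labelled library, at 36.9 ± 1.68, 7.63 ± 0.417 and 24.9 ± 1.47 (−2.14 and −0.55). Only 2.67% of the other genes of like length had a lower ratio. Its RefSeq transcript of 2591 nt was at 7.65, 7.63 and 4.34, nearly the same in mock and the shKSRP-labelled library. The difference lay on 2 assembled transcripts of 1229 and 1233 nt in mock (16.5 and 12.7 FPKM) that have 6 exons, as the RefSeq transcript does, and no counterpart in the shKSRP-labelled library. Over a fixed gene length the Psmd9 ratio was −1.39, still past 2-fold.

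The activators and the regulator had the median closest to mock in the shKSRP-labelled library (−0.03), with Psme4 apart from the rest. Psme1 and Psme2, the subunits of the interferon-inducible activator ring, were at 64.9 ± 2.68, 65.2 ± 2.49 and 57.4 ± 2.11 and at 100.0 ± 2.89, 89.1 ± 2.61 and 106 ± 3.02. Set against genes of like length, Psme1 had the highest ratio of the members in the shKSRP-labelled library (0.52 above its window) and Psme2 the highest in the BMP2 library (0.42 above). Psme3, the nuclear activator, was at 51.7 ± 1.13, 50.8 ± 1.07 and 39.4 ± 1.00 (−0.03 and −0.38), so that the BMP2 library stood below the other two. Psmf1, an inhibitor of the core in the test tube, stayed between 10.02 and 11.2. Psme4, the large activator used in sperm and DNA repair, was at 87.8 ± 2.91 in mock, 31.5 ± 0.526 in the shKSRP-labelled library and 30.5 ± 0.769 in the BMP2 library (−1.45 and −1.49). In mock 76.9 FPKM of this lay on an assembled transcript of 791 nt at the 3′ end (chr11:30776903-30780279, mm9), while the RefSeq transcript of 47 exons was at 10.9, 31.5 and 7.32. Over a fixed gene length the Psme4 ratios turned to 0.61 and 0.06, so no direction is given for it.

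In all, 7 members share a locus with another gene in at least 1 file, among them Psmb5 with a microRNA gene and Psmd2 and Psmg3 with protein genes, and there the division of fragments is uncertain. Assembled transcripts are built separately in each library, and 10 members in mock, 4 in the shKSRP-labelled library and 5 in the BMP2 library had over 50% of their FPKM on them. Over a fixed gene length, 7 members were lower by 2-fold in the shKSRP-labelled library, all among the 11: Psma6, Psmb5, Psmb7, Psmd14, Psmd9, Psmg3 and Psmg4. On that scale 11.0% of all genes were lower, and the members' median was −0.62. The 17 members with no assembled transcript in any library gave 16 below 0, 4 of them lower by 2-fold, and a median of −0.63 (range −1.20 to 0.13).

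**Figure D4:**
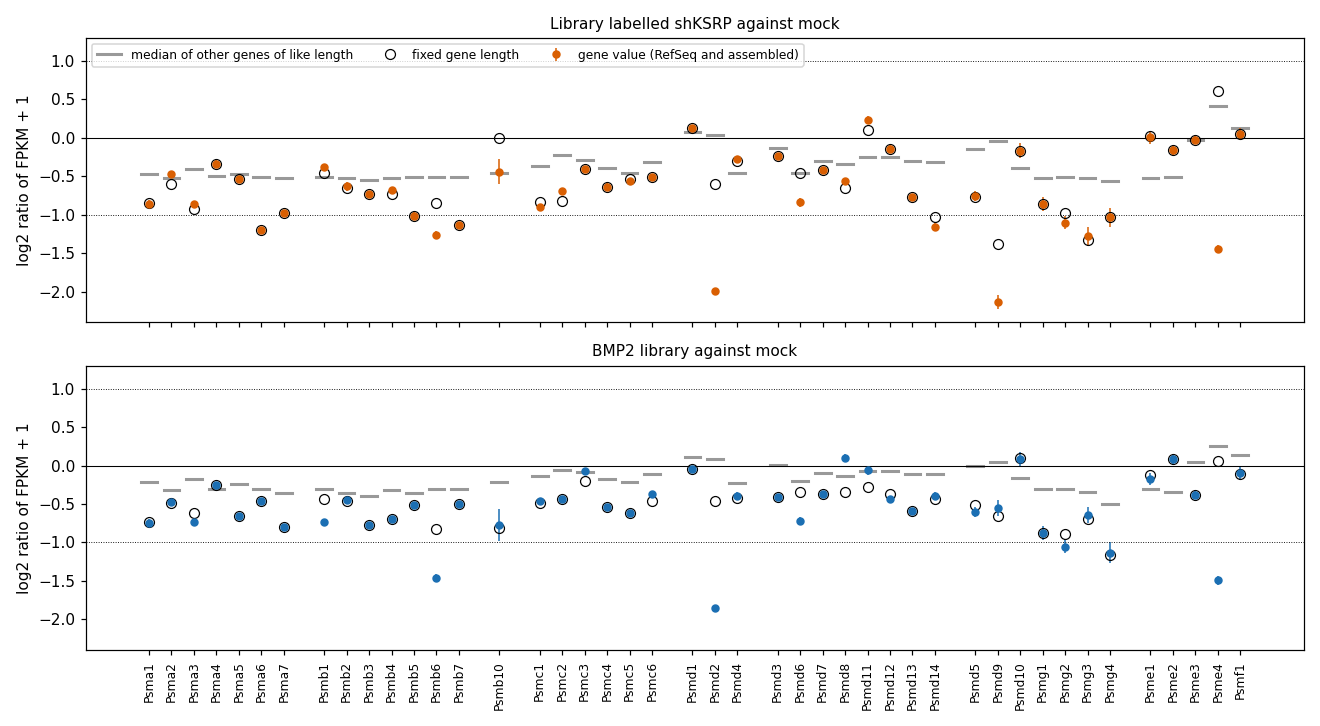
Log2 ratio of FPKM + 1 to mock for each of the 44 proteasome genes in the shKSRP-labelled library (top) and the BMP2 library (bottom): filled points with 95% half-widths are gene values, open circles the values over a fixed gene length, grey bars the median of other genes of like length, and dotted lines a 2-fold difference. In the top panel 11 filled points and 7 open circles lie at or below −1, in the bottom panel 5 and 1.

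In the BMP2 library against mock most members were lower as well. Their unadjusted median was nearer to 0 than in the shKSRP-labelled library, and their length-adjusted median was further from it. Of 44 members 41 were below 0, where 47.2% of all genes were, and all 41 differences were larger than their half-widths. By the 2-fold rule 5 were lower and 0 higher, where 8.95% of all genes were lower and 9.21% higher (18.2% together), so the share of members lower by 2-fold was near that of all genes. The 5 were Psmb6, Psmd2, Psmg2, Psmg4 and Psme4, and over a fixed gene length 1 of them, Psmg4 (−1.17), was past 2-fold, as were 7.3% of all genes in that direction. The median was −0.51 over the members and 0.03 over all genes. The windows of like length had a median of −0.21, smaller than in the other comparison, and the length-adjusted median of the members was −0.37. On that scale 37 of 44 lay below 0. Under the lower quartile of their window lay 16, above the share that a quartile holds by definition.

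By place in the particle, the medians in the BMP2 library were −0.65 for the alpha ring, −0.69 for the constitutive beta ring, −0.45 for the base ATPases, −0.40 for the lid and −0.64 for the chaperones. After adjusting for length they were −0.41, −0.38, −0.34, −0.33 and −0.59 in the same order, so the core and the cap lay closer together. The 17 members with no assembled transcript had a median of −0.50, with 15 below 0. Summed FPKM stood at 62.3% of mock for the core, 64.3% for the base (75.5% over a fixed gene length), 78.4% for the lid and 59.2% for the chaperones. The FPKM of all genes summed to 564500 in the BMP2 library and 677872 in mock. Of these sums the core held 0.451% in BMP2 and 0.602% in mock, and the base 0.205% and 0.266%. The lid held 0.139% and 0.147%, and the chaperones 0.0372% and 0.0523%. Before adjusting for length, the lid gene Psmd8 had the highest ratio to mock of the members in the BMP2 library. It was at 176 ± 3.46 in mock, 119 ± 2.81 in the shKSRP-labelled library and 189 ± 5.12 in the BMP2 library (−0.56 and 0.10). Over a fixed gene length its ratio in the BMP2 library was −0.35.

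Both comparisons share the mock library, so a high mock value lowers both ratios of a gene at once. The count of 37 members below 0 in both is therefore not independent support for either. Scaling each library to the same sum of FPKM, which was added after seeing the data, moved the median of all genes from −0.02 to 0.27 in the shKSRP-labelled library and from 0.03 to 0.26 in the BMP2 library. Of all genes, 17.7% were then higher by 2-fold and 8.24% lower in the first, and 13.3% higher and 6.39% lower in the second. Members then had medians of −0.31 and −0.24, with 33 and 35 of 44 below 0 and 3 lower by 2-fold in each. Relative to the median of all genes the members' medians were −0.64 and −0.54 before and −0.59 and −0.50 after.

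Set directly against each other, the shKSRP-labelled library and the BMP2 library differed little in these genes. The median log2 ratio of the first to the second was −0.09 over the members and −0.02 over all genes, with 26 of 44 below 0, where 51.3% of all genes were. After adjusting for length the members' median had the other sign, at 0.07, with 18 of 44 below 0. By the 2-fold rule 1 member, Psmd9, was lower (−1.59) and 0 higher, where 8.66% of all genes were lower and 6.07% higher (14.7% together). Psmd9 was at −0.73 over a fixed gene length and no member passed. Differences past the half-width were seen in 23 members below 0 and 14 above. Besides Psmd9, the lowest after adjusting for length were Psmd14 (−0.77 before adjusting) and Psma6 (−0.75), and Psmb5 and Psmb7 were at −0.49 and −0.64. The highest after adjusting were Psmb1 (0.35 before adjusting), Psmb10 (0.33) and Psmd12 (0.30), which were at −0.02, 0.81 and 0.21 over a fixed gene length. Before adjusting, Psme3 was the highest (0.36).

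Genes that work with the proteasome but carry other names gave a mixed picture. Of 11 measured partners, 2 were higher and 3 lower by 2-fold in the shKSRP-labelled library, and 0 and 3 in the BMP2 library (medians −0.57 and −0.56). Of all genes 11.0% were higher and 12.9% lower in the first, and 9.21% and 8.95% in the second. Pomp, the chaperone that matures the core, was at 333 ± 5.99 in mock, 139 ± 3.70 in the shKSRP-labelled library and 226 ± 5.88 in the BMP2 library (−1.25 and −0.56), the same order as Psmb5 and Psmb7. The cap deubiquitinases Uchl5 (37.6, 17.8 and 13.6) and Usp14 (70.9, 35.7 and 30.9) and the F-box gene Fbxo7 (13.9, 6.10 and 6.33), whose protein binds the product of Psmf1, were also highest in mock. Uchl5 had fixed-length ratios of −0.73 and −1.25, Usp14 −0.20 and −0.40, and Fbxo7 −0.66 and −0.62. Ecpas (19.5, 44.7 and 22.0) and Zfand5 (12.4, 36.4 and 16.8), which code for proteasome-binding proteins, were highest in the shKSRP-labelled library, but over a fixed gene length their ratios there were 0.29 and 0.25.

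Genes known to control the subunit genes went both ways. Of 11, 3 were higher by 2-fold in the shKSRP-labelled library and 0 lower, where 11.0% of all genes were higher, or 16.1% of other genes over 3000 nt, the length of these 3. Another 5 were below 0, among them the CCAAT-binding factor genes Nfyb (−0.79) and Nfyc (−0.76) and the extraction factor gene Ufd1 (−0.69). In the BMP2 library 0 passed in either direction, where 18.2% of all genes did. The medians were 0.35 and 0.19, or 0.26 and 0.13 after adjusting for length, and the first became 0.02 with length adjustment and a fixed gene length together. Nfe2l1, the transcription factor that raises subunit genes when proteasome activity drops, was at 76.7 ± 1.26 in mock, 188 ± 1.99 in the shKSRP-labelled library and 126 ± 1.71 in the BMP2 library (1.28 and 0.70, and 1.48 and 0.78 over a fixed gene length). Ddi2, the protease that cuts NFE2L1 into its active form, was at 1.65 ± 0.20, 4.59 ± 0.26 and 3.92 ± 0.31. Stat3, a transcription factor reported to act on beta subunit genes, was at 14.4 ± 0.52, 38.5 ± 1.02 and 26.2 ± 0.69. All 3 were highest in the shKSRP-labelled library and lowest in mock, and Nfe2l1 and Ddi2 share their loci with other genes. Nfe2l2, the related oxidative stress factor, was at 62.2, 56.6 and 63.9.

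Genes of ubiquitin supply and of peptide presentation, which act before and after the particle, passed 2-fold in few cases. Of 10 ubiquitin and shuttle genes, 0 were higher and 0 lower by 2-fold against mock in either library (medians 0.09 and −0.01). Of all genes 24.0% and 18.2% passed in either direction. Rps27a, a ubiquitin and ribosome fusion gene, was at 1473, 1650.0 and 821, a log2 ratio of 1.01 between the last 2 libraries that was 0.60 over a fixed gene length. Of 10 measured genes of class I antigen presentation, which uses proteasome products, 1 was higher in the shKSRP-labelled library and 1 lower in the BMP2 library. The first was Tap2, a subunit of the peptide transporter, at 4.44 ± 0.34, 11.0 ± 0.51 and 3.94 ± 0.36, and the second was the class I gene H2-K1, at 17.9 ± 1.00, 12.1 ± 0.68 and 7.10 ± 0.61 and at a shared locus. Of all genes 11.0% were higher in the shKSRP-labelled library and 8.95% lower in the BMP2 library.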

How the data were processed

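Polyadenylated RNA from 3 C2C12 samples, 1 per group, was sequenced on an Illumina HiSeq 2000 after 18 cycles of PCR, per the labels' protocols. Per the submitters' processing notes the build was mm9 and the tools were Cufflinks 1.3.0, TopHat 1.4.1, Bowtie 0.12.7 and CASAVA 1.8, with no roles given. The authors deposited, per library, Cufflinks transcripts with FPKM and its 95% bounds, per the file headers. The score the authors deposited beside each transcript was not used. Whether strand was used in assigning fragments is not given in these sources, so overlapping and antisense genes cannot be told apart.

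The FPKM of a gene was the sum over its RefSeq transcripts and the assembled transcripts of the same Cufflinks locus. The half-width was the root of the summed squares of the transcripts' half-widths. RefSeq accessions were named from a RefSeq table (27563), a GENCODE table (166) or the files (216), and 277 stayed unnamed. Genes at 1 FPKM or more in any library with a transcript of at least 300 nt were compared as log2((FPKM + 1)/(FPKM + 1)), without rescaling, and called at 1 in size. Fold changes on this scale are understated for low genes. The fixed gene length value was the sum of FPKM times transcript length, divided by the longest RefSeq length. Depth was estimated from interval widths of transcripts with 2000 nt and 5 FPKM or more, since the files hold no read numbers. The length adjustment was tested on simulated data. Scripts used Python 3.11.15, numpy 2.4.6, pandas 2.3.3 and matplotlib 3.10.9. The labels name no batch.

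The members and lists were chosen with earlier results of these data known. The rule names every member past 2-fold in any comparison, the 3 highest and 3 lowest after length adjustment in each, the alternative beta, activator, chaperone and cutting subunit genes, and up to 6 genes past 2-fold per pathway list. Members at the end of a group's range, and Psmd1, Psmd4, Psmb3, Nfe2l2, Nfyb, Nfyc and Ufd1, were named after their values were seen. Paaf1 and Cd68 matched no symbol.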

Additional observations from a re-analysis of the deposited data

How the results depend on the processing

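With 1 library in each group, no library could be left out and no spread between replicates exists. No paired analysis was possible because no group has more than 1 library. Values below are for the shKSRP-labelled library against mock, the BMP2 library against mock and the first of these against the second. Counting fragments over a fixed gene length gave 7, 1 and 0 members lower by 2-fold (11, 5 and 1 in the report) and turned Psme4 to 0.61 and 0.059 against mock. The most abundant RefSeq transcript alone gave 2 members higher in the first comparison, 3 lower in the second, and 2 higher and 2 lower in the third. It moved the members' median to −0.47 in the first and −0.18 in the third, and the length-adjusted median of the third from 0.07 to −0.0373. It also turned Psme4 to 1.45 in the first and Psmd9 to 0.69 in the third. Sum scaling gave 3 and 3 lower and medians of −0.31, −0.24 and −0.0039, and median scaling gave medians of −0.57 in the second and −0.032 in the third. A pseudocount of 5 moved the length-adjusted median of the first to −0.29, and windows matched on level as well as length moved that of the second to −0.31. With no filter on low values the median of the first was −0.60, and the length-adjusted medians were −0.60, −0.46 and −0.041, since windows then fill with genes near 0. No alternative gave the members' median against mock another sign. A pseudocount of 0.1, leaving out shared loci, a window factor of 1.5 and genes above 0 in all 3 libraries left these counts within 1.5 times and these medians within the interval of a member. Depth limits Psmb8, Psmb9 and Psmb11, whose intervals overlap between libraries.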

Other observations

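Other large complexes gave values below those of the proteasome genes, near them or nearer to mock, depending on the complex and the scale. The CCT chaperonin, which folds actin and tubulin, had 8 of 8 genes below 0 in both libraries, where 50.9% and 47.2% of all genes were. Its medians were −0.61 in the shKSRP-labelled library and −0.59 in the BMP2 library. Its length-adjusted medians were −0.40 and −0.57, where those of the proteasome members were −0.21 and −0.37. Cct8 was at 648 ± 15.8 FPKM in mock, 134 ± 2.41 in the shKSRP-labelled library and 165 ± 2.83 in the BMP2 library (−2.26 and −1.97, or −1.16 and −0.82 over a fixed gene length), and Cct6a was at 287, 141 and 190. The COP9 signalosome, whose subunits are related to those of the proteasome lid, had 0 of 9 genes past 2-fold, where 24.0% and 18.2% of all genes were. Its medians were −0.12 and −0.22 (0.12 and −0.09 after adjusting for length). The translation factor eIF3, which is related to the lid as well, had 2 of 13 lower in each comparison, where 12.9% and 8.95% of all genes were. Its medians were −0.36 and −0.39 (0.13 and −0.34 after adjusting for length). For both complexes the sign of the first median turned with length adjustment. With length adjustment and a fixed gene length together it did not turn, at −0.04 for the COP9 signalosome and −0.07 for eIF3. Eif3b was at 217, 87.2 and 102 and Eif3d at 312, 146 and 194, and over a fixed gene length their ratios in the shKSRP-labelled library were −0.69 and −0.75. Eif3i was at 306, 174 and 148.

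Of the muscle ubiquitin ligases that feed the proteasome in wasting, Fbxo32 was at 1.69 ± 0.13 FPKM in mock, 7.15 ± 0.24 in the shKSRP-labelled library and 4.26 ± 0.20 in the BMP2 library (1.60 and 0.97), and Trim63 stayed at 0.32 or below. Fbxo32 was lowest in mock, where most proteasome genes were highest, and a link between them was not tested. Its longest transcript has 6936 nt, and other genes of like length had medians of 0.41 and 0.26. After adjusting for length its ratios were 1.19 and 0.71.

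The 6 members with TGACNNNGC in the promoter had a median log2 ratio of −1.14 in the shKSRP-labelled library and −0.53 in the BMP2 library. The 31 measured members with a listed promoter and no such match had medians of −0.68 and −0.54. Over a fixed gene length the medians of both sets were close, at −0.68 and −0.63 in the shKSRP-labelled library and −0.49 and −0.48 in the BMP2 library.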
